A study of Schizosaccharomyces pombe with 2 samples.

Results

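Ergosterol is the main sterol of fungal membranes, and the genes described here encode enzymes that make it in the fission yeast Schizosaccharomyces pombe. The set was chosen by gene symbol and holds erg1, erg2, erg31, erg32, erg5, erg6, erg7, erg11, erg24 and idi1. All 10 had a probe set of their own, out of 2896 S. pombe genes that could be named on the array. RNA came from 2 cultures in mid-log phase, grown in the rich medium YES at 30 °C. One culture received 0.5 mM DETA NONOate, a slow nitric oxide donor, for 2 h, and the other was untreated. The labels name no strain and no sampling time for the untreated culture. Without a control given spent donor, the effect of nitric oxide and that of the donor molecule itself cannot be told apart. RNA was taken from whole cultures, so fewer expressing cells and less RNA per cell cannot be told apart either.

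The pathway starts from acetyl-CoA and runs through mevalonate to the isoprenoid building blocks, which are joined into squalene. Squalene is oxidised and folded into lanosterol, and a series of demethylations, reductions and desaturations turns lanosterol into ergosterol. Some of these steps consume molecular oxygen, and several oxygen-using enzymes carry iron, either in haem or in a pair of iron ions (a diiron centre). Nitric oxide is known to bind haem iron. In fission yeast the membrane-bound transcription factor Sre1, the counterpart of the mammalian sterol regulatory factor, activates sterol synthesis genes when sterols or oxygen are low. The order of steps used below is that of the textbook pathway of budding yeast.

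Each group has 1 Affymetrix Yeast Genome array, so no difference below has a replicate check and no p-value is given. The number of arrays limits how precise any value is. The log2 ratio is the log2 signal on the DETA NONOate array minus that on the untreated array. Between the arrays, 63 probe sets for RNAs added as controls varied with an SD of 0.24 in log2 ratio, from −0.76 to 0.42. That spread leaves out differences between cultures. The 3 parts of the actin control transcript act1 had log2 ratios between 0.09 and 0.15. The S. pombe probe sets had a median signal of 751 on the DETA NONOate array and 760 on the untreated array, against 1.51 and 1.78 for the probe sets of Saccharomyces cerevisiae, a species absent from these cultures by design. All 10 ergosterol genes lay far above the background level (8.76 on the DETA NONOate array and 7.99 on the untreated array, set so that 95% of S. cerevisiae probe sets lay below it). The lowest was erg32, at 79.7 times that level. Probe sets for the S. cerevisiae counterparts of 8 of them gave signals of at most 14.0 on either array.

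The 10 genes differed in both directions between the arrays. The signal was higher in cells exposed to DETA NONOate for erg24, erg2 and erg6, which encode a sterol reductase, a sterol isomerase and a sterol methyltransferase of the later pathway. It was lower for the other 7, most of all for erg1, idi1 and erg11. Ratios above 0 were found for 49.2% of all measured genes and ratios below 0 for 50.8%. A difference of at least 2-fold was found for 1 gene, erg24, in the higher direction and for 0 genes in the lower direction. Over all 2889 measured S. pombe genes, 2.25% were at least 2-fold higher and 2.04% at least 2-fold lower. At 1.5-fold, 2 of the 10 genes were higher and 3 were lower, where 5.68% of all genes were higher and 6.61% lower. The median log2 ratio of the 10 genes was −0.26, against −0.01 for all measured genes. The ratios spanned 1.86 log2 units within the set.

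**Figure D1:**
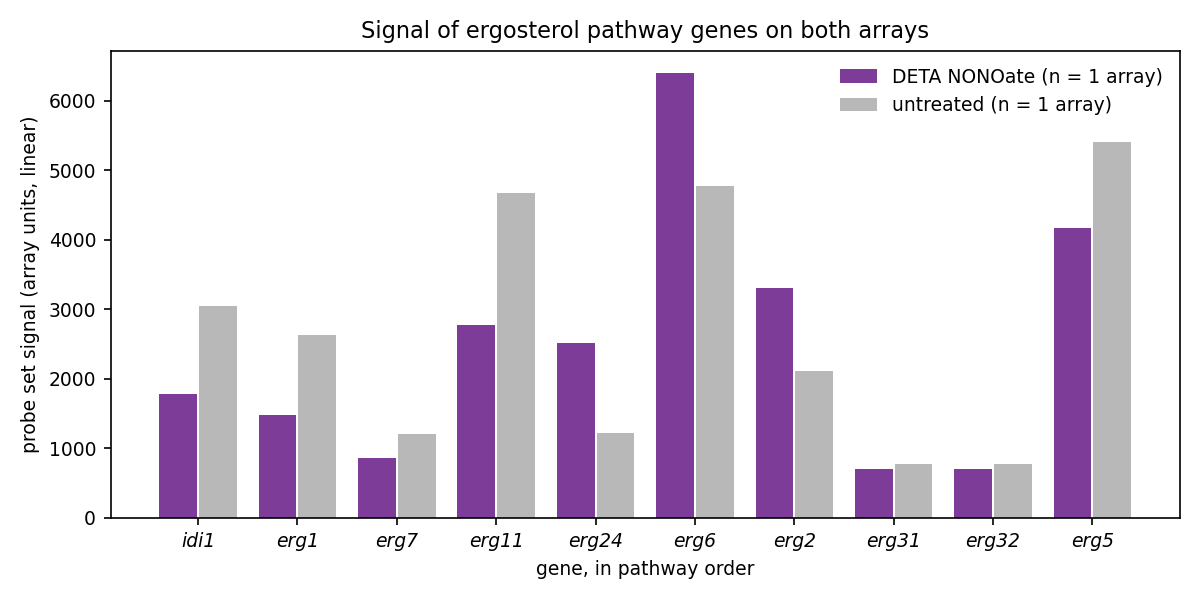
Probe set signal (linear array units) of the 10 ergosterol genes in pathway order, with the DETA NONOate array in purple and the untreated array in grey, 1 array each and so no error bars. The purple bar is taller for erg24, erg6 and erg2 and shorter for the other 7 genes.

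The earliest of the enzymes is Idi1, the isopentenyl diphosphate isomerase, which balances the isoprenoid units from which squalene is built. The idi1 probe set (SPBC106.15) had a signal of 1779 on the DETA NONOate array and 3049 on the untreated array. It was 1.71-fold lower, and 3.74% of all measured genes had a ratio as low or lower. Squalene epoxidase, encoded by erg1 (SPBC713.12), is a flavin enzyme that adds oxygen to squalene and is the target of the antifungal terbinafine. Its signal was 1486 with DETA NONOate and 2631 without, or 1.77-fold lower, the lowest ratio of the 10 genes at percentile 3.25 of all genes. The next enzyme, lanosterol synthase, folds the epoxide into the sterol ring system and is encoded by erg7 (SPAC13G7.01C). The erg7 signal was 855 on the DETA NONOate array and 1213 on the untreated array, 1.42-fold lower.

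Lanosterol is then demethylated by Erg11, a haem enzyme of the cytochrome P450 family and the target of azole antifungals. The erg11 gene (SPAC13A11.02C) had a signal of 2782 in exposed cells and 4677 in untreated cells, a 1.68-fold lower level at percentile 4.33. All 4 genes from idi1 to erg11 in this set were thus lower on the DETA NONOate array, where 50.8% of all measured genes were. The 4 log2 ratios lay between −0.82 and −0.50. The genes fps1 and erg9, outside the set, act between idi1 and erg1 and had log2 ratios of 0.04 and 0.14. The stretch from idi1 to erg11 was drawn after the values were seen. The ratios of erg1, idi1 and erg11 were separated by 0.05 and 0.03 log2 units, well under the spread of the added controls, and cannot be ranked among themselves.

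The direction turned at the step after Erg11. The product of erg24 (SPBC16G5.18) is the sterol reductase that removes the double bond left by Erg11. Its signal was 2512.5 on the DETA NONOate array and 1224 on the untreated array, 2.05-fold higher and at percentile 98.2 of all genes. This was the highest ratio of the 10, and it stood 0.39 log2 units above the next one. The genes of these consecutive steps thus had log2 ratios of 1.04 (erg24) and −0.75 (erg11).

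Further along the pathway, Erg6 methylates the sterol side chain, a step that animal cells lack. The erg6 gene (SPBC16E9.05) had a signal of 6401 with DETA NONOate and 4773 without, or 1.34-fold higher. Erg2 moves a double bond within the ring system, and its gene (SPAC20G8.07C) had signals of 3303 on the DETA NONOate array and 2109 on the untreated array, 1.57-fold higher. The ratios of erg6 and erg2 lay 0.22 log2 units apart, within the SD of the added controls.

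The last enzymes of the set are desaturases. Fission yeast has a pair of genes for the ring desaturase, a diiron enzyme of the endoplasmic reticulum. One of them, erg31 (SPAC1687.16C), had a signal of 709 on the DETA NONOate array and 771 on the untreated array. The other, erg32 (SPBC27B12.03C), had 699 with DETA NONOate and 774 without. Their log2 ratios of −0.12 and −0.15 were both smaller than the SD of the added controls, so neither gene differed beyond that spread. Whether the probes of these related genes also bind the other gene's RNA was not tested. The side chain desaturase Erg5 is the second cytochrome P450 of the pathway. The erg5 gene (SPAC19A8.04) had signals of 4175 in exposed cells and 5401 in untreated cells, 1.29-fold lower with a log2 ratio of −0.37.

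**Figure D2:**
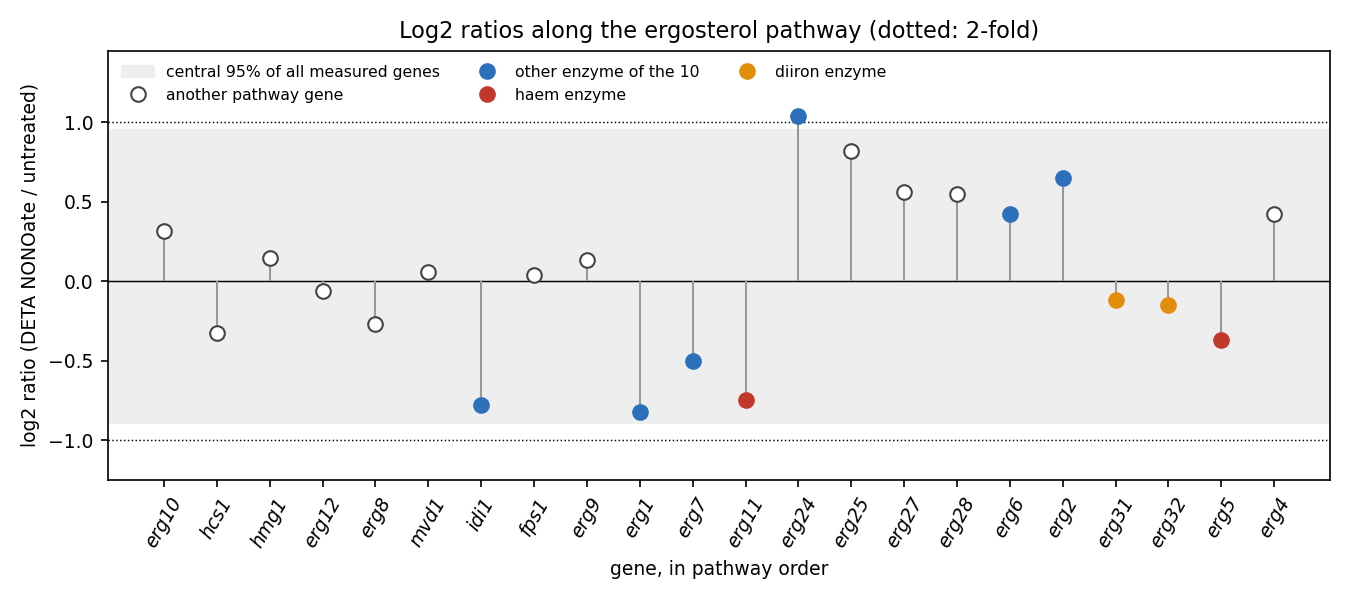
Log2 ratio (DETA NONOate over untreated, 1 array each) of 22 ergosterol pathway genes in pathway order, with the 10 genes of the set as filled points coloured by cofactor and 12 others as open points. The grey band holds the central 95% of all measured genes (−0.90 to 0.95) and dotted lines mark 2-fold; erg24 alone passes 2-fold.

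The enzymes that carry iron were set against the others. Those with haem are Erg11 and Erg5, and those with a diiron centre are Erg31 and Erg32. All 4 of these genes had a lower signal on the DETA NONOate array, where 50.8% of all measured genes did. Of the 4, 0 passed 2-fold, where 2.25% of all measured genes were at least 2-fold higher and 2.04% at least 2-fold lower. Their median log2 ratio was −0.26, with the haem genes at −0.75 and −0.37 and the diiron genes at −0.12 and −0.15. Both diiron ratios lay within the SD of the added controls (0.24), so neither diiron gene differed beyond that spread. Both haem ratios lay within the controls' full range (−0.76 to 0.42). The 6 genes for enzymes with neither cofactor had a median of −0.04, a value that none of them was near. Of these, erg24, erg2 and erg6 had log2 ratios between 0.42 and 1.04, and erg7, idi1 and erg1 between −0.82 and −0.50. The iron enzymes' median was thus 0.22 log2 units under that of the others, a gap smaller than the added controls' SD of 0.24. That SD is for single ratios, so it does not measure the spread of a difference between medians. All 4 iron enzymes lay inside the range of the other 6.

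A division by use of oxygen gave a wider difference. Squalene epoxidase uses oxygen without haem or a diiron centre, so erg1 joins the 4 iron enzymes in that class. The 5 oxygen-using enzymes of the set all had lower signals on the DETA NONOate array, where 50.8% of all measured genes did. Of these 5, erg31 and erg32 lay within the SD of the added controls, and all but erg1 lay within the controls' full range (−0.76 to 0.42). Erg25, an oxygen-using diiron enzyme outside the set, is not counted here, and its gene had a log2 ratio of 0.82. The class of 5 had a median log2 ratio of −0.37, and the 5 others had a median of 0.42, a difference of −0.79. The ranges still overlapped, because idi1 and erg7, whose enzymes use no oxygen, were lower as well. Leaving out idi1 and erg1, the lowest of the genes with neither cofactor, moved the difference between the iron enzymes and the others to −0.80. Removing the lowest values of a class can only raise its median, so the direction of this shift follows from that choice. With so few genes on 1 pair of arrays, these medians depend on which genes are counted.

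**Figure D3:**
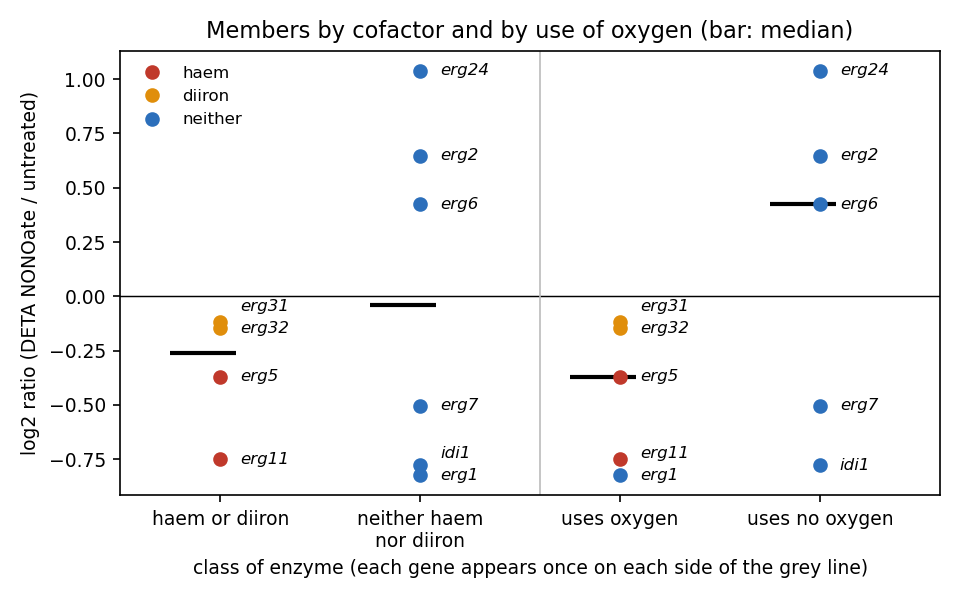
Log2 ratio (DETA NONOate over untreated) of each of the 10 genes, grouped on the left by haem or diiron cofactor and on the right by use of oxygen, with each class's median as a bar. The oxygen-using and the haem or diiron classes lie wholly below 0, and the classes beside them hold genes on both sides of 0.

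Other genes of the pathway were read from a list of 13, of which 12 had a probe set (erg26 had none with a name). None passed 2-fold in either direction, where 2.25% of all measured genes were higher and 2.04% lower. Ratios above 0 were found for 9 of the 12, against 49.2% of all measured genes, and the median log2 ratio of the 12 was 0.14. The 8 genes that lead to squalene stayed within 1.5-fold, as did 2534 of all 2889 measured genes. Among them, hmg1, for the sterol-regulated HMG-CoA reductase, had signals of 2382 on the DETA NONOate array and 2157 on the untreated array, a log2 ratio of 0.14. The squalene synthase gene erg9, directly before erg1, also had a ratio of 0.14, and the HMG-CoA synthase gene hcs1 was the lowest of this group at −0.33. The acetoacetyl-CoA thiolase gene erg10 was the highest at 0.32, and the kinase genes of the mevalonate steps, erg12 and erg8, had −0.06 and −0.27. The genes on either side of idi1 in the pathway, mvd1 and fps1, had log2 ratios of 0.05 and 0.04, where idi1 had −0.78.

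Between Erg24 and Erg6 work the enzymes that remove a pair of methyl groups from the sterol ring. All 3 measured genes of that step were higher in exposed cells. They were erg25, for the diiron methyl oxidase (4573 with DETA NONOate and 2589 without, 1.77-fold higher), erg27, for a keto reductase (1.47-fold higher), and erg28, for a scaffold protein (1.46-fold higher). The last enzyme of the pathway, the reductase Erg4 (named sts1 on the array), had a gene signal 1.34-fold higher. In pathway order, the 6 measured genes from erg24 to erg2 were all higher, where 49.2% of all measured genes were. The 3 from erg1 to erg11 and the 3 from erg31 to erg5 were all lower, where 50.8% of all measured genes were. Among the lower ones, erg31 and erg32 lay within the SD of the added controls, and all but erg1 lay within the controls' full range (−0.76 to 0.42). These stretches were drawn after the values were seen. Where the diiron genes erg31 and erg32 had log2 ratios of −0.12 and −0.15, the diiron gene erg25 had 0.82. Its enzyme uses oxygen too, so with erg25 counted neither the iron enzymes nor the oxygen-using enzymes would all be lower.

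Outside the pathway, 4 of 5 listed genes for other diiron enzymes had a probe set, and they had log2 ratios of 1.65 for the sphingolipid hydroxylase gene sur2, 0.98 for the fatty acid hydroxylase gene scs7, 0.18 for the ubiquinone synthesis gene coq7 and −0.37 for the ribonucleotide reductase gene suc22. Diiron genes on this array were therefore found on both sides of 0. The proteins that serve the haem enzymes were mixed as well. The gene dap1, for a haem protein that supports the sterol P450 enzymes, was 1.95-fold higher, with signals of 1736 on the DETA NONOate array and 891 on the untreated array. The P450 reductase gene ccr1, whose product passes electrons to Erg11 and Erg5, was 1.48-fold higher (5009 with DETA NONOate and 3396 without). The gene oca8 encodes a predicted cytochrome b5, an electron carrier of the endoplasmic reticulum. The oca8 signal was 1.69-fold lower (2393 with DETA NONOate and 4041 without), a log2 ratio of −0.76 at percentile 4.19 of all genes.

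Among the genes for sterol sensing, sre1 had a signal of 4477 on the DETA NONOate array and 1050 on the untreated array, 4.26-fold higher. The genes scp1 and ins1, for the partner proteins of Sre1 and of HMG-CoA reductase in the membrane, had log2 ratios of 0.30 and 0.01, and the relative sre2 had 0.21. Of the 10 ergosterol genes, 3 were higher and 7 lower. Over all 22 measured pathway genes, 12 were higher and 10 lower, with a median log2 ratio of 0.05, where 49.2% of all measured genes had ratios above 0. Any link between the sre1 signal and these ratios was not tested.

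No pair of the 10 ergosterol genes lay side by side in the genome. Of their 20 neighbouring protein-coding genes, 11 had a value. Among these, 10 lay within 1.5-fold, as did 2534 of all 2889 measured genes, and 5 of the 11 had the same direction as the ergosterol gene beside them.

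**Figure D4:**
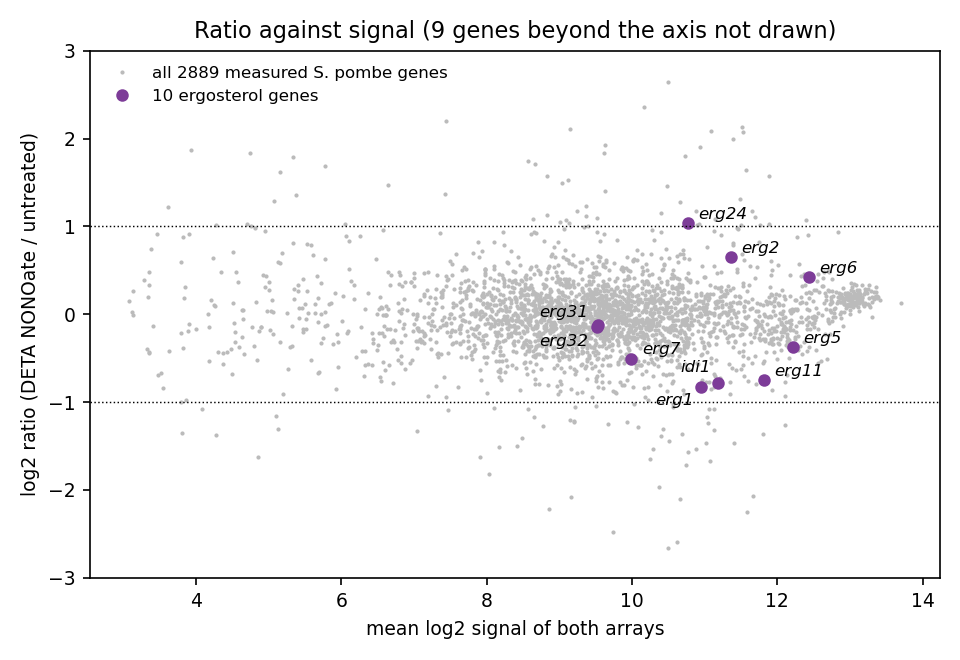
Log2 ratio (DETA NONOate over untreated) against the mean log2 signal of both arrays for 2889 measured S. pombe genes (grey), with the 10 ergosterol genes in purple and 2-fold marked by dotted lines; 9 genes beyond 3 log2 units are not drawn. The ergosterol genes lie in the middle and upper range of signal, and erg24 alone is past the upper line.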

How the data were processed

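RNA of 2 cultures was hybridised to 2 arrays, 1 per group, with cRNA labelled with biotin from 250 ng of total RNA, per the labels' protocols. The deposited values are linear probe set intensities. Per the submitters' processing notes the authors used Affymetrix Expression Console, whose version and summary algorithm the labels do not state. Both arrays had a 2% trimmed mean near the same value (500.32 with DETA NONOate, 500.29 without), so each had been scaled, and a shift common to all transcripts would not be seen. Genes were named through the platform annotation and RefSeq (ASM294v3) gene ids. On each array the 95th percentile of its 2601 S. cerevisiae probe sets was the floor, and lower signals were set to it before the log2 step. A gene was measured if it passed the floor on at least 1 array. Genes were counted at 2-fold. The brightest of several probe sets was used, and each ergosterol gene had 1. The named genes are the 10 and all genes of the lists with a probe set. The members and lists were chosen with earlier results of these data known. Steps were run with Python 3.11.15, numpy 2.4.6, pandas 2.3.3, scipy 1.17.1 and statsmodels 0.14.6. They were tested on simulated data with 3-fold changes in bright genes and less noise than the added controls showed. That check does not cover the smaller differences of the 10 genes. Alternatives were other thresholds, floors, scalings and probe set rules.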

Additional observations from a re-analysis of the deposited data

How the results depend on the processing

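The threshold changed the counts. At 1.5-fold, 2 of the 10 ergosterol genes were higher, 3 were lower, and 1 of the 12 other pathway genes was higher. Of all measured genes, 5.68% were higher and 6.61% lower at 1.5-fold. At 3-fold, 0 of the 10 were higher. The share of all measured genes was not counted at 3-fold, and 2.25% of them were at least 2-fold higher. The difference between the medians of the iron enzymes and the others was −0.22. It became −0.80 without idi1 and erg1, the lowest of the others, whose removal can only widen it. Setting the oxygen-using enzymes against the rest of the same 10 genes gave −0.79. That division differs from the first only in the class of erg1. Under the 6 alternatives for floor, scaling and probe sets, 0 of the 10 genes changed direction, and erg24 kept a log2 ratio between 1.03 and 1.07, close to the 2-fold line. The widest range of any of the 10 was 0.06, for erg6 (0.37 to 0.43). No paired analysis was possible because each group has 1 array. The arrays lack replicates, so these ranges cover processing and not differences between cultures.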

Other observations

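Surplus sterol is stored as esters in lipid droplets, and both listed genes for the enzymes that make these esters had higher signals in exposed cells. The gene are1 had 1060 on the DETA NONOate array and 707 on the untreated array, at percentile 94.3 of the ratios of all measured genes. The gene are2 had 1428 on the DETA NONOate array and 887 on the untreated array, a 1.61-fold difference. Its ratio lay at percentile 95.8. With 1 array per group these are values only.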
